A study of Mus musculus with 6 samples.

Results

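The nuclear receptor superfamily was described in regulatory T cells (Treg cells) that overexpress the microRNA miR-27. The members are 43 named receptor genes out of 24453 gene symbols in the deposited table, and for each symbol the transcript with the highest mean level over all 6 libraries stood for the gene. The genes are listed by name with no threshold on a measured value, and nuclear receptor genes outside the 43 are not described. The miR-27 Tg group (3 libraries) and the WT group (3 libraries) both hold CD4+Foxp3+ Treg cells that were sorted from healthy female C57BL/6 mice. The series text names the mice Foxp3cre het and places the overexpression of miR-27a in Treg cells alone, and Foxp3 lies on the X chromosome, of which female cells silence one copy at random. Whether the cells were sorted for the Cre allele, the age of the mice and the number of mice per library are not stated in the labels. The controls carry the genotype label WT Tg, and its wording is not explained there. Because nothing in the labels ties the libraries to separate mice, p-values measure only the spread between libraries, which may be technical.

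Nuclear receptors are transcription factors that bind DNA directly, and many are switched by a small lipid-soluble ligand such as a steroid, a retinoid, vitamin D, thyroid hormone, an oxysterol or a fatty acid. Many steroid receptors wait in the cytoplasm bound to chaperones. Receptors for retinoic acid, vitamin D, thyroid hormone, oxysterols and fatty acids sit on DNA as partners of a retinoid X receptor (RXR), exchanging corepressors for coactivators when ligand arrives. Orphan members such as the NR4A proteins are governed largely by how much of their messenger RNA is made. In T cells, retinoic acid receptors favour induced Treg cells and gut homing, NR4A receptors are needed for Treg development, RORα takes part in helper T cell differentiation, and the glucocorticoid receptor mediates steroid suppression of inflammation.

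Levels are RPKM as the authors deposited them, here reads per kilobase of transcript with each library scaled to 10000000 counted reads, so that levels of different genes can be compared per length. Counted reads came to 34400000 to 38100000 in miR-27 Tg libraries and 37700000 to 42100000 in WT libraries. The hairpin gene Mir27a had 8919, 7448 and 7898 RPKM in miR-27 Tg libraries, against 24.9, 38.4 and 24.7 RPKM in WT libraries. It was higher by 8.09 on the log2(RPKM + 1) scale (SE 0.17, adjusted p = 6.05e-07 by limma), the direction that the labels give. The 7 defining markers of Treg and CD4 T cells in the table summed to 10099 to 10513 RPKM in miR-27 Tg libraries and 10794 to 11731 RPKM in WT libraries, so that every miR-27 Tg sum lay below every WT sum, and 0 of them were at 0 throughout. Of these 7, 0 passed by limma, and 2 were lower and 0 higher at an unadjusted p under 0.05: Ctla4 (log2 fold change -0.56, adjusted p = 0.0868) and Ikzf2 (-0.51, adjusted p = 0.290). The 7 did not move together, with 4 fold changes above 0 and 3 below. Ctla4 had the largest difference in RPKM, with means of 2335 in miR-27 Tg and 3436 in WT. Cd4 lay apart in the other direction, with means of 2207 RPKM in miR-27 Tg and 1946 RPKM in WT (adjusted p = 0.460 by limma). Foxp3 itself averaged 836 ± 104 RPKM in miR-27 Tg and 764 ± 89.9 RPKM in WT. Myeloid markers lay higher in the miR-27 Tg group, with overlap: 15 of them summed to 498, 1517 and 974 RPKM in miR-27 Tg libraries, against 342, 274 and 614 RPKM in WT libraries. Of the 14 tested, 14 had a fold change above 0 with a median of 1.10 on the log2 scale, 11 were higher and 0 lower at an unadjusted p under 0.05 (4.59% and 8.43% of all genes), 1 passed the adjusted threshold, and none was at 0 in every library. The one that passed was Itgam, with 16.4 ± 0.583 RPKM in miR-27 Tg and 4.41 ± 0.487 RPKM in WT (adjusted p = 0.0118 by limma).

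A microRNA recognises messenger RNAs mainly through its seed, bases 2 to 8, which pairs with a matching stretch in the 3′ UTR. The mature miR-27a-3p, which the transgene supplies, and its relative miR-27b-3p are shown because every seed match named for the receptors refers to them. They are the RefSeq sequences for GRCm38.p6, on the plus strand at chr8:84208727-84208747 and chr13:63300760-63300780, and capitals mark the seed.
miR-27a-3p: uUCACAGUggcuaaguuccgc
miR-27b-3p: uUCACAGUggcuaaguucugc
Both carry the same seed, UCACAGU, so that the DNA letters searched in 3′ UTRs on the transcript's strand were ACTGTGA.

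Most of the receptors were detected in the libraries, at levels that differ widely. At this scaling 1 RPKM is a low level: Pparg, with a mean of 1.29 RPKM, had 3 to 14 reads per library. Which cells in the sorted samples such low reads came from was not tested. Of the 43 members, 27 reached a mean of at least 1 RPKM and were tested, and 16 did not. Among the tested, 7 members averaged 100 RPKM or more, 11 averaged 10 to 100 RPKM and 9 averaged 1 to 10 RPKM. Nr4a1, which encodes Nur77, an orphan receptor induced by T cell receptor signals, was the most abundant member by far, with 48.3% of the summed mean RPKM of all members and 4.88-fold the mean of the next. That next member was Nr1h2, the oxysterol receptor LXRβ, whose 6 libraries ran above those of every member below it. Rxrb, Rarg and Nr3c1 followed with overlapping library values, and Nr2c2 and Rara overlapped below them. The spread was moderate: the median SD over the tested members was 16.0% of the mean in miR-27 Tg libraries and 16.7% of the mean in WT libraries.

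**Figure D1:**
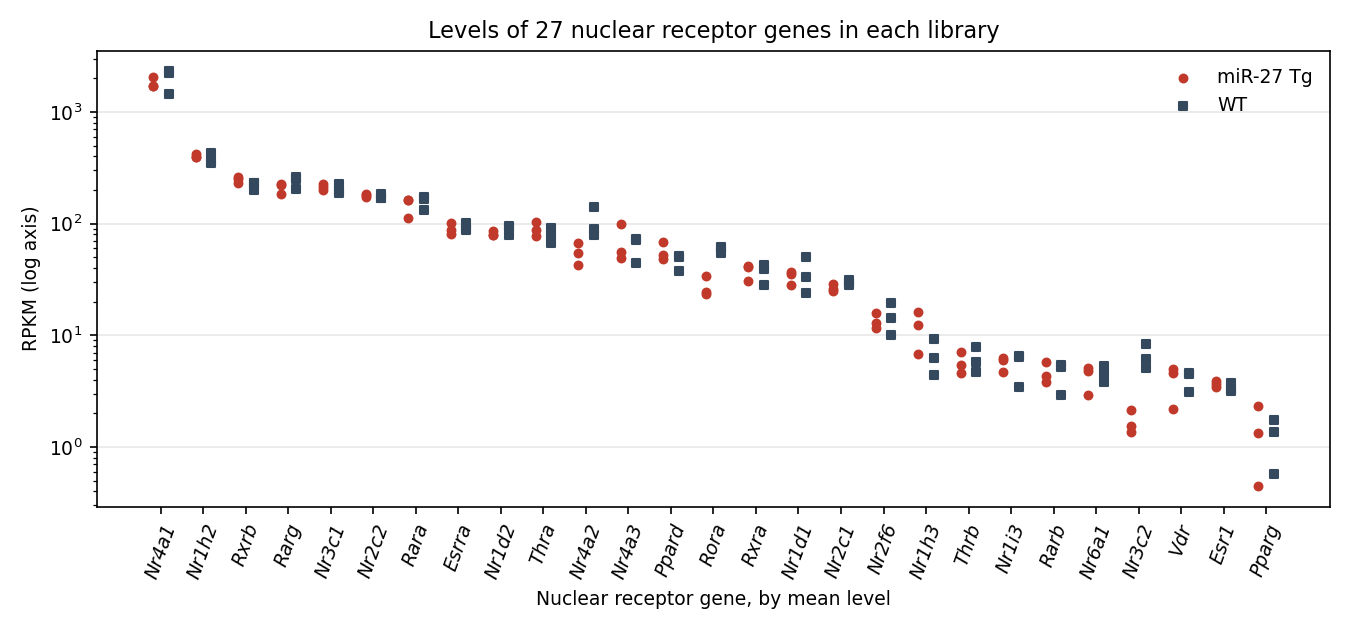
RPKM of the 27 tested nuclear receptor genes on a log axis, with 1 point per library, miR-27 Tg left of WT for each gene. Nr4a1 lies alone at the top with at least 1449 RPKM in all 6 libraries, and the groups lie apart for Rora, Nr3c2 and Nr4a2.

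The mineralocorticoid receptor gene Nr3c2 and the orphan receptor gene Rora fell in miR-27 Tg cells, and no other receptor passed the test. By limma across 13621 genes with Benjamini-Hochberg adjustment, 2 of the 27 tested members were lower in miR-27 Tg and 0 were higher. Those 2 are 7.41% of the members, beside 0.653% of all genes tested that were lower, and 0.374% of all genes were higher. At an unadjusted p under 0.05 the counts were 3 lower (11.1%) and 0 higher, beside 8.43% of all genes lower and 4.59% higher; for the gene lists below, counts at that level stand against the same shares. The other 25 members did not pass, and 23 of them had a fold change under 0.3 either way on the log2(RPKM + 1) scale and a 95% interval that lay within 1 unit either way. For low members that scale understates changes. All 3 miR-27 Tg values lay below all 3 WT values for 3 members, Rora, Nr3c2 and Nr4a2 (11.1%), beside 11.6% of all genes, a share near the background. No member lay apart in the other direction, beside 6.84% of all genes. Over the tested members 13 fold changes were above 0 and 14 below, with a median of -0.04 on the log2 scale, beside -0.01 over all genes. In bulk RNA, fewer cells of a type and less RNA per cell cannot be told apart, which holds for every level given here.

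**Figure D2:**
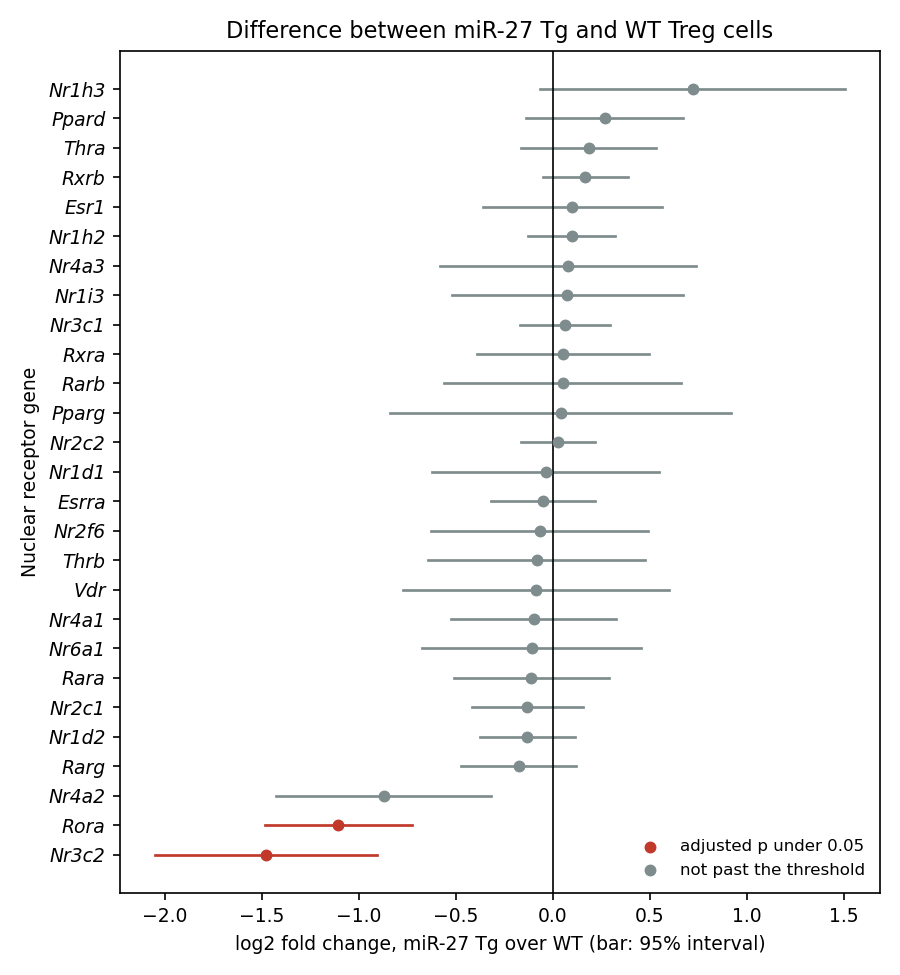
Log2 fold change, miR-27 Tg over WT, of the 27 tested members with 95% intervals from limma, on the log2(RPKM + 1) scale. Only the intervals of Rora, Nr3c2 and Nr4a2 leave out 0, and Rora and Nr3c2 passed the adjusted threshold of 0.05.

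Rora, which encodes RORα, an orphan receptor that activates transcription and competes with the REV-ERB repressors for the same DNA element, fell in miR-27 Tg cells. It had 23.2, 34.3 and 24.2 RPKM in miR-27 Tg libraries, against 62.2, 54.8 and 60.0 RPKM in WT libraries. The highest miR-27 Tg library lay well below the lowest WT library, so that the groups did not overlap. The means were 27.2 ± 6.13 RPKM in miR-27 Tg and 59.0 ± 3.81 RPKM in WT (SD, n = 3 each), a log2 fold change of -1.11 (SE 0.16, 95% interval -1.48 to -0.73, adjusted p = 0.0292 by limma). These levels rest on 960, 1282 and 905 reads in miR-27 Tg libraries and 2840, 2339 and 2453 reads in WT libraries. Left out in turn, each library other than miR-27 Tg replicate 2 ended the call by limma. Without miR-27 Tg replicates 1, 2 and 3 the adjusted p was 0.0860, 0.0385 and 0.123, and without WT replicates 1, 2 and 3 it was 0.105, 0.0677 and 0.121. Myeloid markers moved with the group, and a fit with their mean log2(RPKM + 1) as a covariate gave -1.56 on the log2 scale (adjusted p = 0.394 by limma). In that fit 1 of the 13621 genes passed. Over the 15 markers that mean was 3.95, 4.95 and 4.52 in miR-27 Tg libraries, against 3.41, 2.78 and 3.66 in WT libraries. The groups lay apart in it, so that fit cannot separate group from marker level well.

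**Figure D3:**
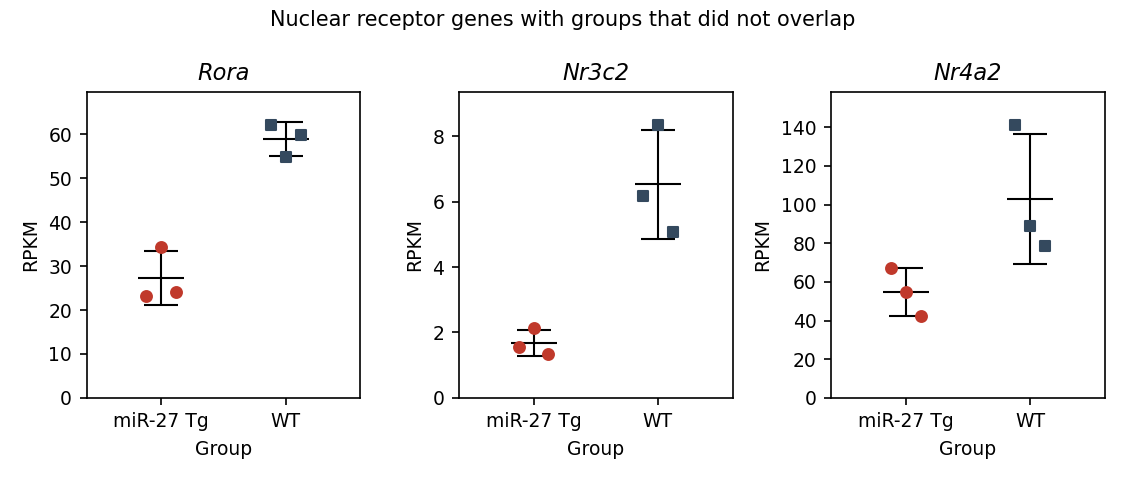
RPKM of Rora, Nr3c2 and Nr4a2 in each library, miR-27 Tg left of WT, with horizontal bars at the group means and vertical bars for the SD (n = 3). In each panel every miR-27 Tg point lies below every WT point.

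The table lists Rora in a long and a short form, which begin far apart on chromosome 9 (mm10, plus strand). The form counted above, NM_001289916, runs from 69289841 to 69388246 and starts 636055 bases downstream of the long form, NM_013646, and both end at the same base. They share 8 internal exons, so nearly every read was counted for both. Reads of the short form exceeded those of the long form by 9, 21 and 11 in miR-27 Tg libraries and by 20, 17 and 38 in WT libraries. A further transcript of 1417 bases that holds the first exon of the long form had 0 reads in all 6 libraries, which allows up to 3 reads per library. The difference between the forms is a net number, since each has exonic bases that the other lacks, and does not show where single reads fell.

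Rora also holds the most seed matches of any tested member, 3, in the longest 3′ UTR of all members, 9285 bases. Per kilobase that is 0.323 matches, below Pparg (4.90), Nr2f6 (2.81), Rara (1.53), Thrb (0.452) and Nr1d2 (0.380). The sites are shown because this is the receptor that both fell and carries the miR-27 match. Capitals mark the letters that pair with the seed, the flanks are 8 bases on either side, and positions are GRCm38, plus strand, from GENCODE M21: chr9:69380485-69380491, chr9:69382260-69382266 and chr9:69383510-69383516.
Rora site 1: aactgtggACTGTGAtttatttt
Rora site 2: atgtggttACTGTGAtaatgcaa
Rora site 3: gttgacttACTGTGAacgacaat
Only the third is followed by an A, the base that lengthens a seed match opposite the first base of the microRNA. Both forms of Rora end after these positions, so the sites lie in either form.

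Among the steroid receptors Nr3c2 fell, Nr3c1 and Esr1 did not pass the test, and Esr2 and Pgr were too low to be tested. Nr3c2 encodes the mineralocorticoid receptor, which binds aldosterone and, with high affinity, glucocorticoids. It had 1.55, 2.14 and 1.35 RPKM in miR-27 Tg libraries, against 6.18, 8.36 and 5.08 RPKM in WT libraries. Every miR-27 Tg library lay far below every WT library, at a level that rests on 24, 30 and 19 reads in miR-27 Tg and 106, 134 and 78 reads in WT. The means were 1.68 ± 0.408 RPKM in miR-27 Tg and 6.54 ± 1.67 RPKM in WT (SD, n = 3 each), with a log2 fold change of -1.48 (SE 0.25, 95% interval -2.05 to -0.91, adjusted p = 0.0422 by limma). For so low a gene the size depends on the value added before the logarithm: it was -1.89 with 0.1 added and -0.78 with 5 added. Leaving out any 1 library ended the call, and limma's adjusted p was then 0.108, 0.0708 and 0.148 for miR-27 Tg replicates 1, 2 and 3, and 0.123, 0.115 and 0.0932 for WT replicates 1, 2 and 3. With no filter on low values both calls were lost (adjusted p = 0.0677 for Rora and 0.0719 for Nr3c2), and with the myeloid covariate Nr3c2 had -1.30 on the log2 scale (adjusted p = 0.966 by limma). The counted transcript NM_001083906 lies on chromosome 8 from 76902508 to 77243639 (mm10, plus strand), and another annotated gene shares 3.8% of the exonic bases of Nr3c2.

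Nr3c1, the glucocorticoid receptor, was far more abundant than Nr3c2 in the same cells. It had 226, 200.4 and 213 RPKM in miR-27 Tg libraries, against 228, 197 and 189 RPKM in WT libraries. The groups overlapped, and the log2 fold change was 0.06 (95% interval -0.17 to 0.29, adjusted p = 0.872 by limma). Esr1, the oestrogen receptor ERα, had 3.44, 3.94 and 3.66 RPKM in miR-27 Tg libraries, against 3.71, 3.16 and 3.22 RPKM in WT libraries, again with overlap and a log2 fold change of 0.10 (adjusted p = 0.901). Chaperones hold steroid receptors ready for hormone, and of 8 tested 0 passed, with 1 higher and 1 lower (12.5% each) at an unadjusted p under 0.05, beside 4.59% and 8.43% of all genes, and a median log2 fold change of -0.04. Hspa8, the constitutive Hsp70, averaged 846 ± 145 RPKM in miR-27 Tg and 581 ± 118 RPKM in WT (adjusted p = 0.221), while Hsp90aa1, an inducible Hsp90, averaged 202 ± 18.8 RPKM in miR-27 Tg and 259 ± 33.1 RPKM in WT (adjusted p = 0.244). Of 11 tested genes that glucocorticoids are known to induce, 0 passed, 1 was lower at an unadjusted p under 0.05 (9.09%, beside 8.43% of all genes), and 8 had a fold change below 0 (72.7%, beside 52.9%), with a median of -0.17. Dusp1, a MAP kinase phosphatase, averaged 1647 ± 183 RPKM in miR-27 Tg and 2493 ± 515 RPKM in WT (log2 fold change -0.58, adjusted p = 0.182). Tsc22d3, which encodes GILZ, spread from 968 to 2254 RPKM within the miR-27 Tg libraries alone, against 1194 to 2108 RPKM in WT libraries. Il7r, the interleukin-7 receptor chain, averaged 408 ± 163 RPKM in miR-27 Tg and 463 ± 69.1 RPKM in WT.

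The NR4A receptors, early genes of T cell receptor signalling that bind DNA without a known hormone, did not pass the test. Nr4a1 had 2072, 1719.9 and 1705 RPKM in miR-27 Tg libraries, against 2237, 1449 and 2308 RPKM in WT libraries. WT replicate 2 was the lowest of all 6, so the groups overlapped, and the log2 fold change was -0.10 (95% interval -0.53 to 0.33, adjusted p = 0.891 by limma). Nr4a2, which encodes Nurr1, had 67.3, 54.6 and 42.6 RPKM in miR-27 Tg libraries, against 141, 88.9 and 78.5 RPKM in WT libraries. Here the groups did not overlap, but WT replicate 1 stood well above the others. The log2 fold change of Nr4a2 was -0.87 (SE 0.24, 95% interval -1.43 to -0.32), with an unadjusted p of 0.00678 and an adjusted p of 0.163 by limma, so it did not pass. Nr4a3, which encodes NOR1, had 99.7, 56.1 and 49.4 RPKM in miR-27 Tg libraries, against 73.3, 44.6 and 71.5 RPKM in WT libraries. The groups overlapped, with miR-27 Tg replicate 1 above every WT library and WT replicate 2 below every miR-27 Tg library, and the log2 fold change was 0.08 (adjusted p = 0.951), and the sign changed to -0.06 when the longest transcript stood for the gene. Whether Nr4a2 differed from its relatives in response was not tested.

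Genes known to be induced beside the NR4A receptors by T cell receptor signals lay mostly lower without passing. Of 12 tested, 0 passed the adjusted threshold, 3 were lower (25.0%) and 0 higher at an unadjusted p under 0.05, beside 8.43% and 4.59% of all genes. A fold change below 0 was seen in 10 (83.3%), beside 52.9% of all genes, with a median of -0.22 on the log2 scale beside -0.01 over all genes. Fosb, an AP-1 subunit, averaged 416 ± 85.1 RPKM in miR-27 Tg and 655 ± 180.2 RPKM in WT (adjusted p = 0.292). Tnfrsf9, the costimulatory receptor 4-1BB, averaged 205 ± 29.8 RPKM in miR-27 Tg and 308 ± 66.0 RPKM in WT (adjusted p = 0.184). Fos averaged 1819 ± 285 RPKM in miR-27 Tg and 2412 ± 588 RPKM in WT (adjusted p = 0.467).

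Retinoid receptors were expressed at a wide range of levels, and none passed the test. Rarg, retinoic acid receptor γ, had 226, 221 and 184 RPKM in miR-27 Tg libraries, against 251, 203 and 262 RPKM in WT libraries. Rara, the α receptor through which retinoic acid acts on T cells, had 164, 164 and 112 RPKM in miR-27 Tg libraries, against 166, 132 and 172 RPKM in WT libraries. Both overlapped between groups, with log2 fold changes of -0.18 for Rarg (adjusted p = 0.642) and -0.11 for Rara (adjusted p = 0.862). Leaving out miR-27 Tg replicate 3 gave 0.071 for Rara. Rarb, a target of retinoic acid in many cells, averaged 4.64 ± 1.03 RPKM in miR-27 Tg and 4.52 ± 1.37 RPKM in WT. Over all its annotated transcripts, 38.4% of the exonic bases lie in other genes, mainly Top2b on the opposite strand. Reads were counted on both strands and the overlap of the counted transcript was not measured, so the value of Rarb is uncertain. Of the shared partners, Rxrb had 253, 232 and 262 RPKM in miR-27 Tg libraries, against 233, 202 and 230.1 RPKM in WT libraries. One miR-27 Tg library fell within the WT range, and the log2 fold change of Rxrb was 0.17 (95% interval -0.05 to 0.39, adjusted p = 0.542). Rxra had 41.7, 41.2 and 30.6 RPKM in miR-27 Tg libraries, against 39.3, 28.1 and 42.6 RPKM in WT libraries, with overlap and a log2 fold change of 0.05 (adjusted p = 0.952).

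Of 7 tested genes that make, bind or degrade retinoids, 0 passed, with 1 higher and 1 lower (14.3% each) at an unadjusted p under 0.05, beside 4.59% and 8.43% of all genes. Cyp26b1, which degrades retinoic acid, had 11.0, 11.6 and 11.0 RPKM in miR-27 Tg libraries, against 5.52, 3.31 and 6.51 RPKM in WT libraries. All miR-27 Tg libraries lay above all WT libraries, with a log2 fold change of 1.04 that did not pass (adjusted p = 0.1004 by limma). Dhrs3, which reduces retinaldehyde back to retinol, had 40.2, 53.3 and 64.4 RPKM in miR-27 Tg libraries, against 74.3, 75.7 and 92.5 RPKM in WT libraries, a log2 fold change of -0.63 (adjusted p = 0.175). Crabp2, a retinoic acid carrier, averaged 1.93 ± 1.46 RPKM in miR-27 Tg and 2.07 ± 0.207 RPKM in WT.

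Of the fatty acid receptors, Ppard was the main form in these cells. It had 68.1, 52.3 and 48.2 RPKM in miR-27 Tg libraries, against 50.7, 37.5 and 51.1 RPKM in WT libraries. The groups overlapped, and the log2 fold change of Ppard was 0.27 (95% interval -0.14 to 0.67, adjusted p = 0.608). Pparg, the receptor of adipocytes and of Treg cells in fat, had 0.448, 2.31 and 1.32 RPKM in miR-27 Tg libraries, against 1.76, 0.578 and 1.36 RPKM in WT libraries. Its values were mixed between groups, with a log2 fold change of 0.04 (95% interval -0.84 to 0.92, adjusted p = 0.984), so a change of nearly 1 log2 unit either way was not excluded on the log2(RPKM + 1) scale. That scale understates changes of so low a gene. The SE of Pparg was 0.38 with 1 added and 0.69 with 0.1 added, so larger changes were not excluded either. Of 7 tested genes that PPARs are known to induce, 1 fell and 0 rose, beside 0.653% lower and 0.374% higher of all genes tested. At an unadjusted p under 0.05 by limma, 1 was higher (14.3%) and 2 were lower (28.6%), beside 4.59% and 8.43% of all genes. Cpt1a, which brings long-chain fatty acids into mitochondria, had 152, 142 and 149.6 RPKM in miR-27 Tg libraries, against 211, 199 and 237 RPKM in WT libraries. The groups of Cpt1a lay apart, with a log2 fold change of -0.54 (SE 0.09, adjusted p = 0.0460 by limma). That call was lost with no filter (adjusted p = 0.0719), no intensity trend (0.0857), equal library medians (0.0683) or the myeloid covariate (0.847, with a log2 fold change of -0.62), and when any of the 6 libraries was left out (adjusted p 0.0677 to 0.150). The median of these 7 genes was 0.003 on the log2 scale, beside -0.01 over all genes. Acadl, an enzyme of fatty acid oxidation, averaged 121 ± 12.3 RPKM in miR-27 Tg and 155 ± 15.8 RPKM in WT (adjusted p = 0.232), while Plin2, a lipid droplet protein, averaged 53.4 ± 16.9 RPKM in miR-27 Tg and 59.8 ± 9.83 RPKM in WT. Fabp4, a fatty acid carrier that macrophages also express, averaged 3.46 ± 1.92 RPKM in miR-27 Tg and 1.20 ± 0.440 RPKM in WT (adjusted p = 0.378), beside the myeloid sums given above, whose part in it was not tested.

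Among the thyroid hormone receptors, Thra was the abundant one. It had 103, 88.5 and 77.2 RPKM in miR-27 Tg libraries, against 77.5, 67.1 and 91.7 RPKM in WT libraries, with overlap and a log2 fold change of 0.19 (95% interval -0.16 to 0.53, adjusted p = 0.686). Thrb had 4.56, 7.04 and 5.39 RPKM in miR-27 Tg libraries, against 5.80, 7.82 and 4.66 RPKM in WT libraries, a log2 fold change of -0.08 (adjusted p = 0.937). Vdr, the vitamin D receptor, had 2.18, 4.55 and 5.02 RPKM in miR-27 Tg libraries, against 4.60, 3.10 and 4.52 RPKM in WT libraries, a log2 fold change of -0.09 (adjusted p = 0.948). For none of these receptors did the groups lie apart. Of 4 tested genes of thyroid hormone handling and response, 0 passed, and 1 was lower at an unadjusted p under 0.05 (25.0%, beside 8.43% of all genes). That was Dio3, which inactivates thyroid hormone, with 0.141, 1.25 and 0.934 RPKM in miR-27 Tg libraries, against 3.44, 2.73 and 2.70 RPKM in WT libraries (log2 fold change -1.21, adjusted p = 0.140). Dio2, which activates the hormone, averaged 1.46 ± 0.366 RPKM in miR-27 Tg and 0.866 ± 0.426 RPKM in WT, and Klf9, a hormone-induced factor, averaged 32.8 ± 8.44 RPKM in miR-27 Tg and 40.1 ± 20.0 RPKM in WT. Of 3 tested genes of vitamin D metabolism, 0 passed, and 0 had an unadjusted p under 0.05. The 25-hydroxylase Cyp2r1 averaged 13.8 ± 1.14 RPKM in miR-27 Tg and 11.5 ± 0.819 RPKM in WT. Cyp27a1, the sterol 27-hydroxylase that macrophages also express, averaged 11.0 ± 9.45 RPKM in miR-27 Tg and 4.93 ± 3.56 RPKM in WT. Cyp27b1, which makes the active hormone, averaged 1.13 ± 0.384 RPKM in miR-27 Tg and 1.05 ± 0.784 RPKM in WT.

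The REV-ERB repressors, which bind haem and oppose ROR receptors at the same DNA elements, did not pass, in contrast to the call for Rora. That contrast itself was not tested. Nr1d1, which encodes REV-ERBα, had 35.7, 36.7 and 28.0 RPKM in miR-27 Tg libraries, against 33.0, 23.9 and 50.4 RPKM in WT libraries. The WT libraries spread on both sides of the miR-27 Tg libraries, with a log2 fold change of -0.04 (95% interval -0.62 to 0.55, adjusted p = 0.975). Nr1d2, which encodes REV-ERBβ, had 79.8, 78.5 and 85.9 RPKM in miR-27 Tg libraries, against 94.9, 93.8 and 79.9 RPKM in WT libraries, with overlap and a log2 fold change of -0.13 (adjusted p = 0.680). Nr1d1 and Thra overlap tail to tail on opposite strands, which touches 8.5% of the exonic bases of Nr1d1 and 5.7% of those of Thra over all annotated transcripts, and reads there cannot be told apart. The Thra transcript counted here, NM_178060, ends at 98765113, before Nr1d1 begins at 98767932, so the Thra levels above lie outside the overlap. The other Thra transcript, NM_001313983, ends at 98769006 and reaches into Nr1d1.

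Genes of the circadian clock, which ROR and REV-ERB receptors tie to metabolism, lay mostly lower in miR-27 Tg cells without passing the adjusted threshold. Of 14 tested, 0 passed, 6 were lower (42.9%) and 0 higher at an unadjusted p under 0.05, beside 8.43% and 4.59% of all genes. A fold change below 0 was seen in 11 (78.6%), beside 52.9% of all genes. Their median was -0.32 on the log2 scale, beside -0.01 over all genes. Nfil3, a repressor in the clock and in lymphocytes, averaged 85.8 ± 13.9 RPKM in miR-27 Tg and 161 ± 55.6 RPKM in WT (log2 fold change -0.84, adjusted p = 0.214). Without WT replicate 2, its lowest WT library, it passed (-1.17, adjusted p = 0.0355 by limma). Hlf, an activator that binds the same element, averaged 2.44 ± 0.646 RPKM in miR-27 Tg and 5.18 ± 1.97 RPKM in WT (-0.81, adjusted p = 0.303). Bhlhe40, another clock repressor, averaged 265 ± 57.7 RPKM in miR-27 Tg and 395 ± 65.5 RPKM in WT (-0.59, adjusted p = 0.214).

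The oxysterol receptors LXRβ and LXRα, which drive cholesterol efflux, did not pass the test, and LXRα spread the more widely. Nr1h2 (LXRβ) had 397, 397 and 421 RPKM in miR-27 Tg libraries, against 350.2, 363 and 426 RPKM in WT libraries. The groups overlapped, with a log2 fold change of 0.10 (95% interval -0.13 to 0.32, adjusted p = 0.756). Nr1h3 (LXRα), the form known from macrophages and liver, had 6.75, 16.1 and 12.5 RPKM in miR-27 Tg libraries, against 6.24, 4.40 and 9.19 RPKM in WT libraries. Its miR-27 Tg replicates 2 and 3 lay above every WT library and replicate 1 did not, and the log2 fold change was 0.72 (SE 0.34, 95% interval -0.07 to 1.51, adjusted p = 0.432), the largest above 0 among the members. It was 0.47 when miR-27 Tg replicate 2 was left out and 1.04 when replicate 1 was. The order of the 6 libraries by Nr1h3 was the same as their order by the summed myeloid markers, which held for 1 of the 27 members. By the mean log2(RPKM + 1) of the markers the order differed, with miR-27 Tg replicate 1 (3.95) above WT replicate 3 (3.66). Fitted with the myeloid level as a covariate, Nr1h3 had a log2 fold change of -0.57, and the share of its reads that came from myeloid cells was not tested.

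**Figure D4:**
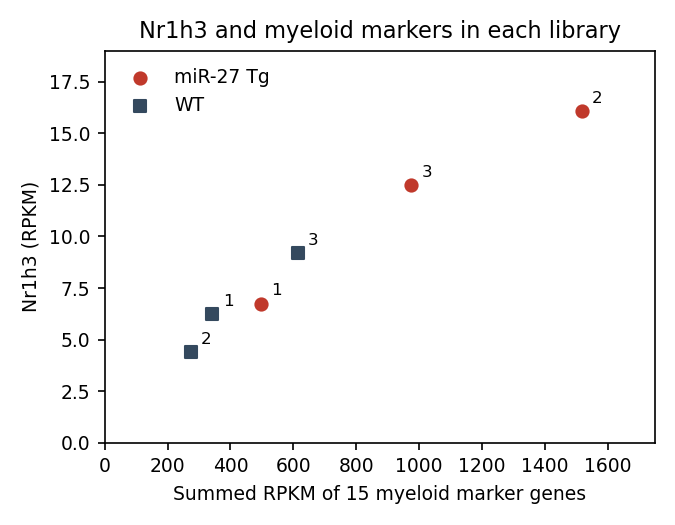
RPKM of Nr1h3 against the summed RPKM of 15 myeloid markers in each of the 6 libraries, miR-27 Tg and WT in different colours. Nr1h3 had 16.1 RPKM in the library with the highest marker sum (1517, miR-27 Tg replicate 2) and 4.40 RPKM in the one with the lowest (274, WT replicate 2).

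Genes that LXRs are known to induce did not move together. Of 9 tested, 0 passed, with 1 higher (11.1%) and 2 lower (22.2%) at an unadjusted p under 0.05, beside 4.59% and 8.43% of all genes, and a median of 0.03 on the log2 scale. Abca1, the cholesterol exporter, had 49.7, 37.9 and 34.3 RPKM in miR-27 Tg libraries, against 55.0, 61.8 and 64.3 RPKM in WT libraries, so that the groups lay apart (log2 fold change -0.57, adjusted p = 0.155). Apoe, a lipoprotein that macrophages also make, had 164, 294 and 341 RPKM in miR-27 Tg libraries, against 114, 93.8 and 290.0 RPKM in WT libraries (0.80, adjusted p = 0.504). Scd1, a fatty acid desaturase, averaged 3.66 ± 0.814 RPKM in miR-27 Tg and 1.78 ± 0.937 RPKM in WT (0.78, adjusted p = 0.308).

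The remaining orphan and metabolic receptors with countable levels did not pass the test. Nr2c2, the testicular receptor TR4, had 183, 181 and 172 RPKM in miR-27 Tg libraries, against 184, 171 and 171 RPKM in WT libraries, with the narrowest spread of these (log2 fold change 0.03, 95% interval -0.16 to 0.22), although 31.2% of its exonic bases lie in other genes, mainly Mrps25. Its partner Nr2c1 (TR2) had 28.9, 26.1 and 25.1 RPKM in miR-27 Tg libraries, against 29.1, 31.0 and 27.9 RPKM in WT libraries (-0.13, adjusted p = 0.738). Esrra, the oestrogen-related receptor that drives mitochondrial genes, had 87.3, 100.4 and 81.5 RPKM in miR-27 Tg libraries, against 89.6, 86.9 and 102 RPKM in WT libraries (-0.05, adjusted p = 0.917). The groups overlapped for all of them. Nr2f6, an orphan receptor known to restrain T cell cytokine genes, averaged 13.5 ± 2.16 RPKM in miR-27 Tg and 14.6 ± 4.66 RPKM in WT (-0.07, adjusted p = 0.950). Nr1i3, the xenobiotic receptor CAR, averaged 5.65 ± 0.873 RPKM in miR-27 Tg and 5.45 ± 1.71 RPKM in WT. Over all annotated transcripts, Ocel1 shares 54.4% of the 2983 exonic bases of Nr2f6 and Tomm40l 74.9% of the 4414 of Nr1i3, both on the opposite strand. The counted transcripts have 2212 and 1298 bases, and their own overlap was not measured. The values of these receptors may therefore include reads of their neighbours. Nr6a1, the germ cell nuclear factor, averaged 4.26 ± 1.16 RPKM in miR-27 Tg and 4.60 ± 0.743 RPKM in WT (-0.11, adjusted p = 0.916).

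The cofactors that receptors recruit did not pass the test either. Of 14 tested coactivators 0 passed and 1 was lower at an unadjusted p under 0.05 (7.14%, beside 8.43% of all genes), with a median log2 fold change of 0.06. That one was Ncoa7, with 146, 167 and 234 RPKM in miR-27 Tg libraries, against 291, 234 and 216 RPKM in WT libraries (-0.45, adjusted p = 0.346). The acetyltransferase Crebbp averaged 181 ± 54.1 RPKM in miR-27 Tg and 151 ± 32.3 RPKM in WT, and the mitochondrial coactivator Ppargc1b averaged 29.5 ± 2.72 RPKM in miR-27 Tg and 25.6 ± 2.88 RPKM in WT. Of 8 tested corepressors 0 passed, and 0 had an unadjusted p under 0.05, with a median of 0.0025. Gps2, a subunit of a corepressor complex, averaged 512 ± 25.8 RPKM in miR-27 Tg and 469 ± 24.4 RPKM in WT. Tbl1xr1, another subunit, averaged 124 ± 5.73 RPKM in miR-27 Tg and 139 ± 14.5 RPKM in WT, and the ligand-dependent corepressor Lcor averaged 29.8 ± 1.94 RPKM in miR-27 Tg and 33.2 ± 2.09 RPKM in WT.

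The 16 untested members include the receptors that define liver, retina, gonad and neural programmes. Of these, 6 were at 0 in every library: Rorb, Nr1i2, Nr2e1, Nr2f2, Pgr and Nr5a1. A count of 0 allows up to 3 reads per library, which is 0.0939 to 0.364 RPKM depending on the gene's length. The other 10 (Rxrg, Ppara, Nr1h4, Nr2e3, Nr2f1, Hnf4a, Esr2, Esrrb, Esrrg and Nr5a2) had 1 to 14 reads over all 6 libraries together. Their highest value in any library was 0.959 RPKM, in Rxrg, from 7 reads. Hnf4a, the hepatocyte factor, and Nr5a2 each had a single read in total. Ppara, the PPAR of fasting liver, had 5 reads in the miR-27 Tg libraries together and 7 in the WT libraries, so that the PPAR family was represented by Ppard and, faintly, Pparg. None of these levels carries a comparison between groups.

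Seed matches were not confined to Rora. Of the 27 tested members, 8 hold at least 1 match in the 3′ UTR (29.6%), beside 1951 of 11817 genes tested with a 3′ UTR (16.5%), and 3′ UTRs of the members were longer, with a median of 1625 bases beside 1072 bases. Rora holds 3, Rara and Thrb hold 2 each, and Rxra, Pparg, Nr1d2, Nr2f6 and Esr1 hold 1 each. The sites of Rara and Thrb are shown beside those of Rora above because these receptors carry several matches and did not pass the test. They are on the plus strand of GRCm38 (GENCODE M21), at chr11:98974323-98974329 and chr11:98974570-98974576 for Rara and chr14:18035212-18035218 and chr14:18037191-18037197 for Thrb, with capitals for the match as before.
Rara site 1: tctctaatACTGTGAaatactaa
Rara site 2: ccagccccACTGTGAaggggccg
Thrb site 1: aggaagtcACTGTGAaaagcaag
Thrb site 2: tttattgtACTGTGAtatagata
Both Rara sites and the first Thrb site are followed by an A, as is 1 of the 3 in Rora. The median log2 fold change was -0.08 over the members with a match and 0.03 over those without, beside -0.06 and 0.0005 over all genes with and without one. Nr3c2 and Nr4a2, which lay lower in miR-27 Tg cells, hold no match of these 7 letters in the 3′ UTR searched. Among untested members Pgr holds 2 matches and Nr2f2 and Nr5a2 hold 1 each in the 3′ UTRs searched, in messages that were at or near 0 here. For Ppara the 3′ UTR searched had 1561 bases and all GENCODE M21 exons 3836 bases. The Ppara transcript counted has 7197 bases, so part of it lay outside the search.

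**Figure D5:**
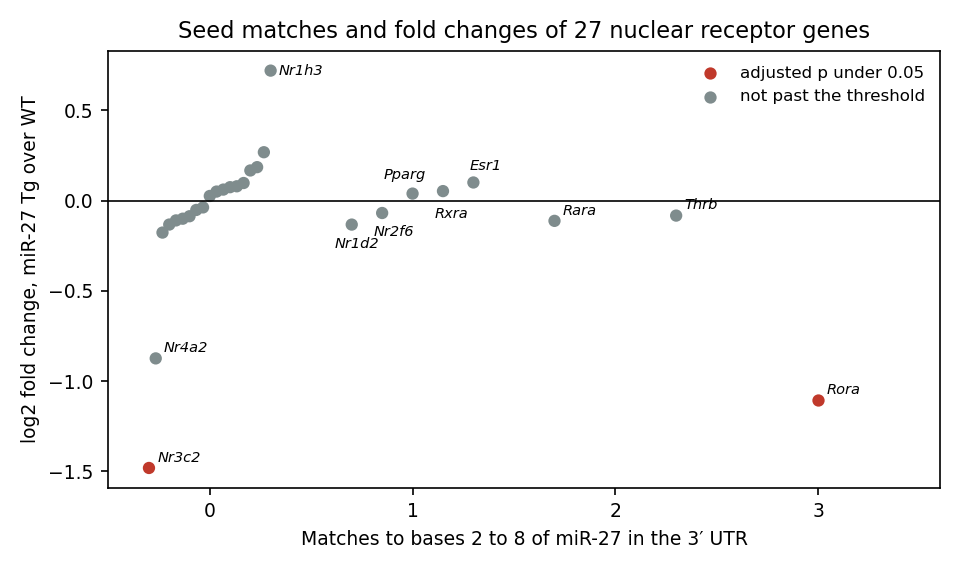
Log2 fold change, miR-27 Tg over WT, of the 27 tested members against the number of seed matches of miR-27 in the 3′ UTR, with points of equal number spread sideways so that they can be seen. Rora stands at 3 matches and -1.11, Rara and Thrb at 2 matches lie near 0, and Nr3c2 at -1.48 has 0 matches.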

How the data were processed

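The authors deposited 1 table of RPKM values for 6 libraries. Per the submitters' processing notes, the tools were STAR 2.2.0c and HOMER, and the builds mm10 and GRCm38. Exons of mm10 RefSeq transcripts were counted on both strands by HOMER and each library was scaled to 10000000 reads, per the file headers, so overlapping genes share reads. Shares of exonic bases in other genes refer to all GENCODE M21 exons of a gene, not to the RefSeq transcript counted. Low values were whole multiples, within 0.1 read, of the value of 1 read, which gave depth and read numbers (intervals and floors cover counting error only). As RPKM are no counts, a count model was not fitted.

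For each symbol the transcript with the highest mean RPKM was kept. Symbols with a mean of at least 1 RPKM were tested on log2(RPKM + 1), which understates changes of low genes, with limma 3.58.1 (intensity trend) in R 4.3.3, two-sided, Benjamini-Hochberg over 13621 genes, threshold 0.05. The fit was tested on simulated data. The members and lists were chosen with earlier results of these data known. All members are named. One corepressor is not reported here. From each list the genes past the threshold and up to 3 with the largest fold changes are named. The match was searched in the 3′ UTR of the longest GENCODE M21 protein-coding transcript. Alternatives changed the pseudocount, filter, trend, weights, scaling, transcript, block, covariate and libraries. The marker lists covered Treg and CD4 T cells, myeloid cells, B cells, CD8 T and NK cells, and erythroid cells.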

Additional observations from a re-analysis of the deposited data

How the results depend on the processing

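The count of receptors called was 2 in the reported fit and stayed at 2 with a pseudocount of 0.1 or 5, no intensity trend, array weights, equal medians or the longest transcript. It was 0 with no filter on low values, where more genes were tested, 1 with a filter at 5 RPKM, which left Nr3c2 untested, and 0 with the myeloid marker level as a covariate. That covariate lay apart between the groups, so it is confounded with group, and it also leaves fewer residual degrees of freedom. With it the SE went from 0.16 to 0.27 for Rora and from 0.25 to 0.50 for Nr3c2. The count of receptors called ranged from 0 to 1 when 1 library was left out, which leaves fewer samples. Genes higher in miR-27 Tg, 51 in the reported fit, numbered 15 with no filter, 81 with array weights and 1 with the covariate, and 3 to 14 with 1 library left out. Genes lower in miR-27 Tg, 89 in the reported fit, numbered 32, 144 and 0 under the same settings, and 1 to 44 with 1 library left out.

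With the replicate number as a replicate block, 91 genes were higher and 185 lower, and Nr4a2 passed besides Rora and Nr3c2 (log2 fold change -0.87, adjusted p = 0.0215 by limma). The labels do not pair the numbers: deviations of same-numbered libraries correlated by 0.368, 0.0971 and 0.0368, and not every library correlated best with its own number.

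Some fold changes changed sign, in members and in list genes, and none of these passed in either fit. With array weights the log2 fold change was -0.094 for Rarb, -0.0076 for Rxra, 0.13 for Thrb, -0.11 for Nr4a3 and 0.033 for Nr6a1. With the longest transcript it was -0.057 for Nr4a3. With the myeloid covariate it was -0.18 for Rarb, -0.31 for Rxra, -1.18 for Pparg, -0.012 for Nr1h2, -0.57 for Nr1h3, 0.049 for Nr2c1, -0.041 for Esr1, 0.072 for Nr6a1, 0.42 for Crabp2, -0.95 for Cyp27a1, -0.87 for Cyp27b1, -0.63 for Apoe and -0.28 for Fabp4. With 1 library left out the lowest and highest values were -0.23 and 0.071 for Rara, -0.17 and 0.18 for Rarb, -0.12 and 0.19 for Rxra, -0.25 and 0.35 for Pparg, -0.26 and 0.20 for Vdr, -0.23 and 0.086 for Thrb, -0.29 and 0.24 for Nr1d1, -0.17 and 0.20 for Nr1i3, -0.30 and 0.15 for Nr2f6, -0.13 and 0.018 for Esrra, -0.32 and 0.019 for Nr4a1, -0.22 and 0.28 for Nr4a3, -0.22 and 0.089 for Nr6a1, -0.56 and 0.17 for Crabp2, -0.22 and 0.37 for Cyp27b1, -0.61 and 0.16 for Klf9, and -0.55 and 0.0035 for Il7r. The cause was not tested.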

Other observations

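B cell markers summed to 113 to 166 RPKM in miR-27 Tg libraries and 145 to 171 RPKM in WT libraries, CD8 T and NK cell markers to 138 to 269 RPKM in miR-27 Tg libraries and 97.2 to 152 RPKM in WT libraries, and erythroid markers to 4.47 to 21.4 RPKM in miR-27 Tg libraries and 8.77 to 26.7 RPKM in WT libraries. By limma 0 markers of each of these lists passed. At an unadjusted p under 0.05, 1 of 9 tested B cell markers was higher (11.1%) and 0 were lower. Of 6 tested CD8 T and NK cell markers, 2 were higher (33.3%) and 1 was lower (16.7%). Of all genes 4.59% were higher and 8.43% lower. The 2 were Cd8b1 (means of 136 RPKM in miR-27 Tg and 81.3 RPKM in WT) and Klrd1 (22.5 and 7.06 RPKM). The lower one was Klrb1c (2.07 and 5.56 RPKM).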
